A study of Homo sapiens with 4 samples.

Results

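Lysosomal genes were followed in 22Rv1 cells, a human prostate cancer line, after knockout of CD276, which encodes the surface protein B7-H3. The genes were chosen by name. The rows beginning with ATP6V0 or ATP6V1, together with ATP6AP1 and ATP6AP2, gave 40 rows, of which 13 pseudogenes were left out, and 20 named lysosomal genes were added. This gave 47 members of the 57014 named rows of the count table: 24 genes of V-ATPase subunits, 13 of hydrolases and their activator, 5 of membrane proteins, 2 of transcription factors, and 3 rows that match the name pattern but encode no subunit (ATP6V0E2-AS1, ATP6V1B1-AS1 and ATP6V1G2-DDX39B). Poly(A)-selected RNA was sequenced from 2 libraries labelled CD276 knockout, with sgCD276 in their names, and from 2 control libraries labelled wild type, whose names carry sgGFP. All were grown in RPMI-1640 with 10% fetal bovine serum. The labels do not say whether the knockout line is a single clone or a pool, nor whether each replicate was a culture of its own. The spread behind the p-values is therefore that among 4 libraries and may be technical.

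Lysosomes are acidic compartments in which hydrolases break down proteins, lipids, glycogen and other polymers delivered by endocytosis and autophagy. The V-ATPase pumps protons into them. Its cytosolic V1 sector hydrolyses ATP on subunits A and B and turns a central stalk, and its membrane sector V0 carries the protons across through a ring of c-type subunits. TFEB and TFE3, transcription factors held in the cytosol when mTORC1 is active, switch on many lysosomal genes through a promoter element of the E-box type known as the CLEAR element.

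The libraries held 24437926 and 25802417 counts in knockout replicates 1 and 3, against 23206271 and 20079050 in control replicates 1 and 3. Levels are given as normalized CPM (gene counts relative to the library's total after scaling for composition) while a difference is the log2 ratio of the knockout to the control level, with its SE. Rises and falls are named only for genes that passed edgeR's quasi-likelihood test at a Benjamini-Hochberg adjusted p under 0.05, taken over all 18043 genes tested. CD276 itself was at 23.6 and 26.2 normalized CPM in the knockouts and 47.4 and 54.4 in the controls (-1.03 ± 0.16 on the log2 scale, edgeR adjusted p = 0.00561). Without control replicate 3 its adjusted p was 0.0812, the highest of 15 alternatives, the lowest being 2.28e-16. Markers of prostate luminal cells summed to 3147 and 3895 normalized CPM in the knockouts and 3941 and 3863 in the controls, with all 9 tested, 0 higher and KRT18 lower. The 6 markers of macrophages and other leukocytes, cells rich in lysosomes, summed to 0.495 and 0.619 normalized CPM in the knockouts and 1.746 and 0.981 in the controls, with MRC1 at 0 counts in every library and PTPRC at 0 to 3. In bulk RNA, fewer cells of a type and less RNA per cell cannot be told apart.

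Promoters of the members are shown first because the CLEAR element is the sequence that TFEB and TFE3 are known to bind. RefSeq windows on GRCh38.p14, from 250 bases before to 50 after a gene's start, were matched to 32 of the 44 members that encode proteins of the pathway. In the windows below, capitals mark each complete CACGTG, the E-box core, which reads the same on both strands. LAMP1, which rose in the knockouts, is shown at chr13:113297034-113297238 (plus strand), MCOLN1 at chr19:7522564-7522623 (plus), GAA at chr17:80101491-80101580 (plus), CTSA at chr20:45891275-45891334 (plus), ATP6V1G1 at chr9:114587679-114587738 (plus) and ATP6V0D1 at chr16:67481188-67481247 (minus); the genes after LAMP1 are examples of members that were not called.
LAMP1: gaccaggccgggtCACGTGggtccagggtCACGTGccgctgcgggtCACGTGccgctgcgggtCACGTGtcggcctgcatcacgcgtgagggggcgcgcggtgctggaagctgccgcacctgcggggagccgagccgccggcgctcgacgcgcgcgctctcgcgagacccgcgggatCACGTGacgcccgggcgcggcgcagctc
MCOLN1: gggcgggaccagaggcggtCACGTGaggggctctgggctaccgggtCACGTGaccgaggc
GAA: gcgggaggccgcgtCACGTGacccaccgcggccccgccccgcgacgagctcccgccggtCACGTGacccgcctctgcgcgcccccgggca
CTSA: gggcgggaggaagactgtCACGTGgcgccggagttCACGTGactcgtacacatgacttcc
ATP6V1G1: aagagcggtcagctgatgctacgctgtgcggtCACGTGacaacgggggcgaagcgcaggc
ATP6V0D1: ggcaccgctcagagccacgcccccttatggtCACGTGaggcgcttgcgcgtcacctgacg

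CACGTG was present in the window of 10 of the 32 members (31.2%), against 12.4% of the 11422 tested genes with a window and 8.77% of all 27305 genes with one. The extended form TCACGTGA, which contains CACGTG, was present in 6 of 32 members (18.8%), against 2.12% of tested genes. With a further G before it and C after it, this form was present in 3 of 32 (9.38%), against 0.849%. LAMP1 had 6 copies of CACGTG, of which the last spans the gene's start and is not shown in full. Among the members that rose, CACGTG was found for 1 of 4 with a window (LAMP1, not SCARB2, LIPA or ATP6V1D), for 0 of 2 that fell (GLA and ATP6V1C2) and for 9 of 24 that were not called. ATP6V1B2, LAMP2, ATP6V1A and ASAH1, which also rose, had no window and were not searched. These counts therefore cannot tell whether members that rose carry the motif less often than those not called. A match of letters is a description and not a binding site, and genes with several windows had more chances to match.

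A minority of the lysosomal genes was called, more of them higher than lower in the knockouts. Of the 47 members, 42 passed the filter on low counts, and 8 of these rose, 2 fell and 32 were not called. Over all genes tested 9.87% rose and 12.9% fell, while among the 7644 nuclear protein-coding genes with a mean of at least 20 CPM, a set chosen after its values were known and nearer to the members in level, 15% rose and 13.5% fell. The members' counts, in all and by role below, were not tested against these shares. Nothing particular to the members or to a role is read from them. The median log2 fold change of the 42 members was 0.04, against -0.00 for all genes tested. For 26 of the 42 the libraries of the 2 groups did not overlap, which held for 65.9% of all genes tested. The 8 that rose were ATP6V1A, ATP6V1B2, ATP6V1D, LAMP1, LAMP2, SCARB2, LIPA and ASAH1, and the 2 that fell were ATP6V1C2 and GLA. With library totals alone in place of the scaling, which moved the median of all genes from near 0 to 0.10, 11 members rose and 1 fell, and 2340 genes rose and 1781 fell in all, against 1780 and 2331. With 1 library left out, the number of called genes moved widely, among the members as over all genes, the spread then being taken from the other group. Few or none of the 10 calls held without a control library. The median of the members was 0.07 without control replicate 1 and 0.06 without control replicate 3. It was 0.25 without knockout replicate 1 and 0.04 without knockout replicate 3, against -0.00 and -0.02 over all genes tested. The direction of all 10 was the same in each of these fits.

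**Figure D1:**
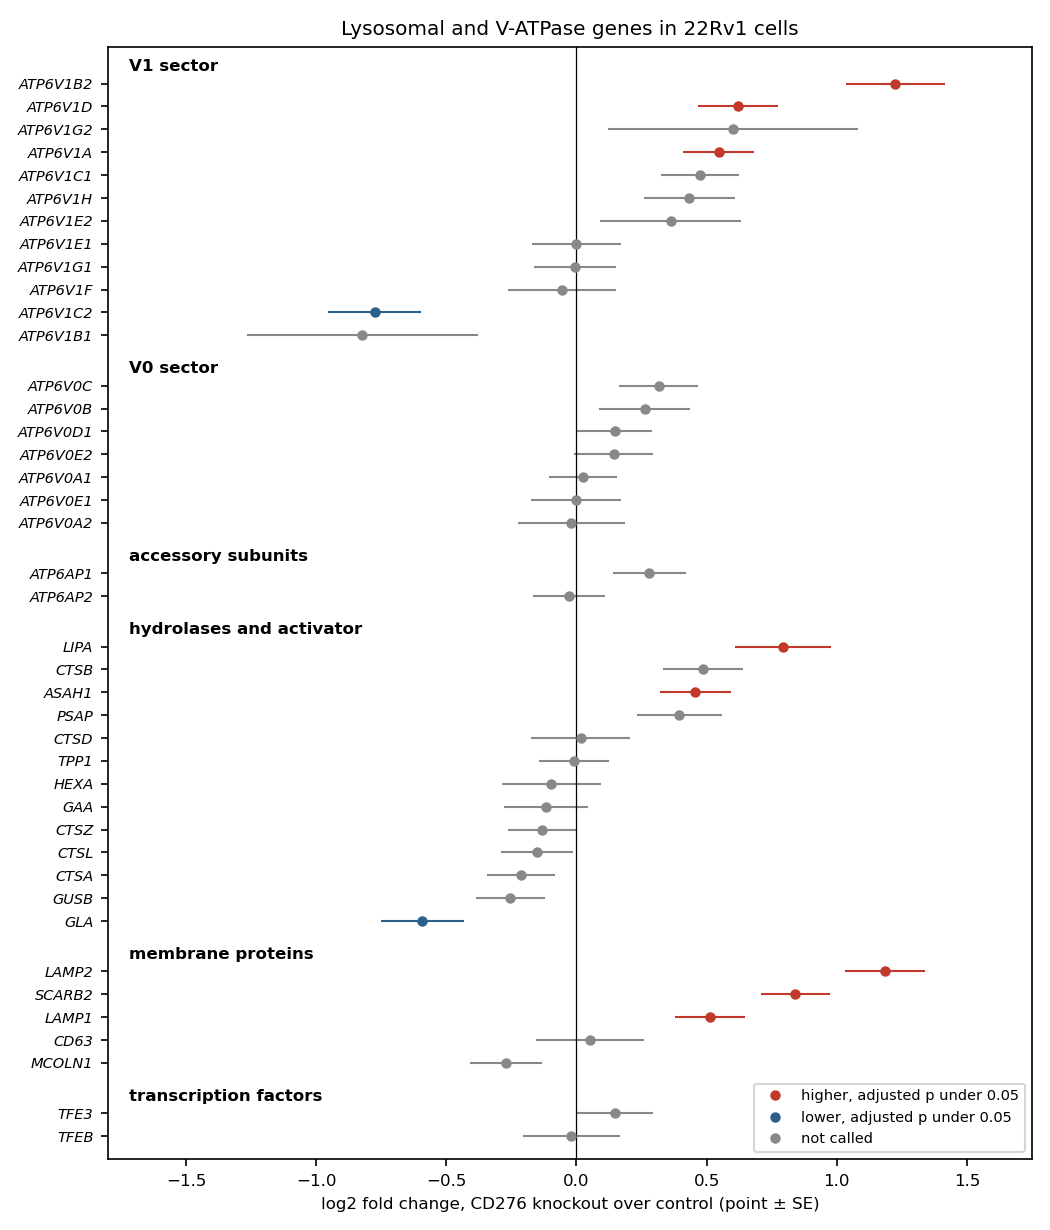
Log2 fold change of CD276 knockout over control (x axis) with its SE for the 41 tested members that encode proteins of the pathway, grouped by role; red points rose, blue points fell and grey points were not called. ATP6V1B2 and LAMP2 lie farthest to the right at 1.23 and 1.19. None of the 7 tested genes of the V0 sector was called, from which nothing particular to the sector is read.

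Genes for the V1 head and its rotor were among those that rose. ATP6V1B2 (chromosome 8, 20197367 to 20226819, plus strand, GRCh38), the widely expressed form of the nucleotide-binding subunit B, was at 100.3 and 69.5 normalized CPM in the knockouts and 34.5 and 38.2 in the controls (1.23 ± 0.19 on the log2 scale, edgeR adjusted p = 0.00591). Both knockouts lay well above both controls, and they differed from each other more than the controls did. ATP6V1A (chromosome 3, 113747019 to 113812056, plus strand), the catalytic subunit, was at 89.2 and 80.3 in the knockouts and 56.2 and 59.9 in the controls (0.55 ± 0.14, adjusted p = 0.0243 by edgeR). ATP6V1D (chromosome 14, 67294371 to 67360265, minus strand), part of the rotating central stalk, was at 41.4 and 48.1 in the knockouts and 29.3 and 28.9 in the controls (0.62 ± 0.15, edgeR adjusted p = 0.0231). The libraries of the 2 groups did not overlap for these genes, as the test all but requires of called genes with 2 libraries each. Over 15 alternatives the adjusted p ran from 7.88e-48 to 0.0615 for ATP6V1B2, from 9.77e-11 to 0.385 for ATP6V1A and from 2.05e-09 to 0.298 for ATP6V1D, the highest each time without control replicate 1.

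The remaining V1 genes did not pass in the direction of these 3. ATP6V1C1, which encodes the widely expressed form of the regulatory subunit C, was at 55.9 and 47.8 normalized CPM in the knockouts and 36.5 and 38.1 in the controls (0.48 ± 0.15, edgeR adjusted p = 0.0514). ATP6V1H, a subunit that regulates the activity of the pump, was at 47.6 and 64.2 in the knockouts and 43.1 and 39.7 in the controls (0.43 ± 0.17, edgeR adjusted p = 0.102). Neither passed, although their groups did not overlap, which held for 65.9% of all genes tested. The low-count paralogs ATP6V1B1, ATP6V1E2 and ATP6V1G2 were at -0.82 ± 0.44, 0.36 ± 0.27 and 0.60 ± 0.48 on the log2 scale and did not pass either. Without knockout replicate 1, ATP6V1G2 was at 1.11 and passed (edgeR adjusted p = 0.000867), and without knockout replicate 3 it was at -0.13 (edgeR adjusted p = 0.810). The main genes of the peripheral stalk subunits E and G and of the rotor subunit F had log2 fold changes of -0.00 ± 0.17 for ATP6V1E1, -0.01 ± 0.16 for ATP6V1G1 and -0.06 ± 0.21 for ATP6V1F, and in each of them knockout replicate 1 lay below the mean of the controls and knockout replicate 3 above it. Without knockout replicate 3, ATP6V1F was at -0.32 and passed (edgeR adjusted p = 0.00580, against 0.0595 without knockout replicate 1), and 23.7% of its exonic bases are shared with KCP on the opposite strand. ATP6V1E1, ATP6V1G1 and ATP6V1F have merged exons (all annotated exons of a gene joined, not a transcript length) of 3212, 1305 and 789 bases. The range was 4251 to 7816 bases for ATP6V1A, ATP6V1B2 and ATP6V1D, and ATP6V1C1 and ATP6V1H, which did not pass, have 5851 and 5090. With offsets for GC content and length, ATP6V1E1, ATP6V1G1 and ATP6V1F had log2 fold changes of -0.01, 0.24 and 0.40 (edgeR adjusted p of 0.972, 0.261 and 0.155). Over the sector's 12 tested genes, 3 passed higher, 1 passed lower and 8 did not pass; the median was 0.40, and unadjusted p-values under 0.05 numbered 5 higher and 1 lower.

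ATP6V1C2, the tissue-restricted form of subunit C, went the other way. It was at 15.0 and 19.5 normalized CPM in the knockouts and 29.7 and 29.4 in the controls (-0.78 ± 0.18, edgeR adjusted p = 0.0188). The groups did not overlap for ATP6V1C2, as the test all but requires with 2 libraries each. Over 15 alternatives its adjusted p ran from 1.30e-09 to 0.221, the highest without control replicate 1. As a share of the TPM of subunit C (counts per kilobase of merged exons, scaled to the same sum in each library), ATP6V1C1 made up 68.9% and 59.3% in the knockouts and 42.2% and 43.6% in the controls. By this measure ATP6V1C2 held the larger share in both controls and the smaller in both knockouts, which rests on the division by merged exon length, which is greater for ATP6V1C1. In normalized CPM, ATP6V1C1 was above ATP6V1C2 in all 4 libraries. With 2 libraries against 2, the smallest two-sided p an exact permutation test of this share can give is 0.333. ATP6V1C2 (chromosome 2, 10721100 to 10785110, plus strand) shares 29.9% of its exonic bases with opposite-strand genes, among them PDIA6, a disulfide isomerase. If strand was not used, reads from the shared bases may have been miscounted or dropped. The part of this in the difference was not tested. PDIA6, a gene picked with its values in view, had 380 and 332 normalized CPM in the knockouts and 186 and 216 in the controls (0.83 ± 0.16, edgeR adjusted p = 0.0103), the opposite direction to ATP6V1C2.

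Paralogs of the other subunits kept a dominant gene. ATP6V1B2 made up 97.8% and 97.0% of the TPM of subunit B in the knockouts and 91.1% and 89.8% in the controls, the rest being ATP6V1B1, the form known from acid-secreting cells of kidney and inner ear. ATP6V1B1 had only 20 and 19 counts in the knockouts and 26 and 29 in the controls, and 62.4% of its exonic bases are shared with VAX2 on the same strand. ATP6V1E1 held 97.2% and 97.6% of subunit E in the knockouts and 98.2% and 97.8% in the controls. For subunit G, ATP6V1G1 held 98.9% and 97.9% in the knockouts and 98.6% and 99.2% in the controls, with ATP6V1G2, known from neurons, at 49 and 119 counts in the knockouts and 61 and 29 in the controls and ATP6V1G3 at 0 counts in every library. Subunit a of V0 was mostly ATP6V0A1, at 79.1% and 84.1% in the knockouts and 80.7% and 81.1% in the controls, and subunit e was split between ATP6V0E1, at 66.7% and 69.1% in the knockouts and 69.9% and 70.5% in the controls, and ATP6V0E2. The kidney form ATP6V0A4 and the osteoclast form ATP6V0D2 had 0 to 2 counts per library.

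**Figure D2:**
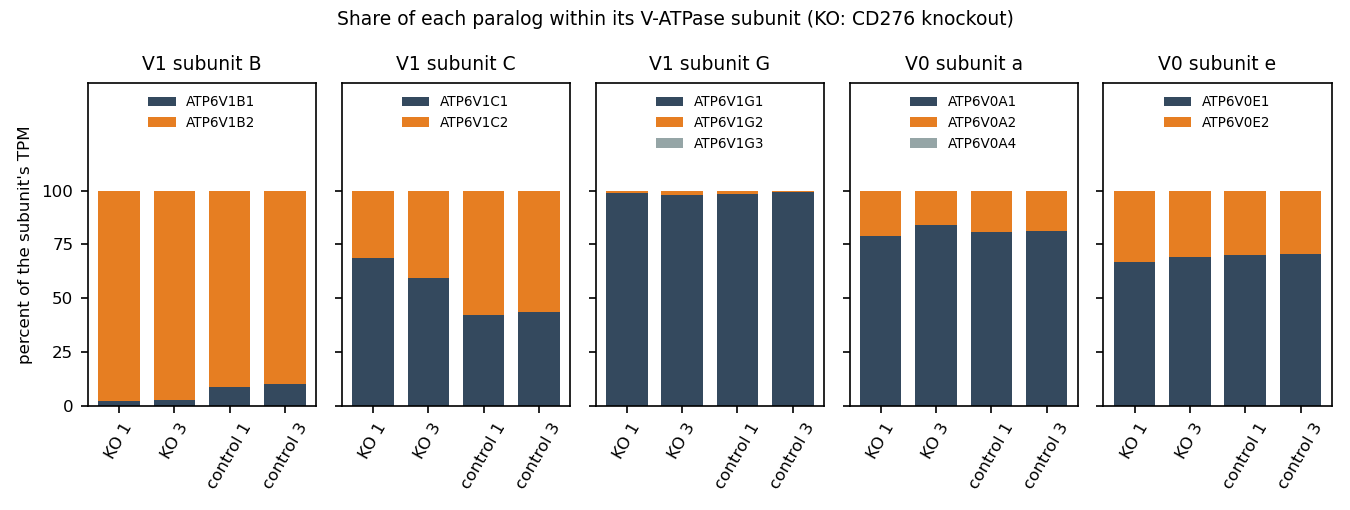
Share of each paralog in the TPM of its subunit (y axis, percent) in the 2 knockout and the 2 control libraries (x axis) for subunits B, C and G of V1 and a and e of V0. The panel of subunit C shows ATP6V1C1 at 68.9% and 59.3% in the knockouts and 42.2% and 43.6% in the controls, and subunits G, a and e keep the same main gene in all 4 libraries.

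None of the 7 tested genes of the V0 sector was called in either direction (0 and 0 by edgeR, also 0 and 0 at an unadjusted p under 0.05 and by DESeq2). Over all genes tested 9.87% rose and 12.9% fell, so with 7 genes this is not read as particular to the sector. The median log2 fold change of the 7 was 0.14. The sector's median differed by knockout library. It was 0.28 without knockout replicate 1 and 0.10 without knockout replicate 3, against -0.00 and -0.02 over all genes tested. ATP6V0C, which encodes the proton-carrying c subunit of the ring, was at 103 and 114 normalized CPM in the knockouts and 78.1 and 96.1 in the controls (0.32 ± 0.15, edgeR adjusted p = 0.162). With offsets for GC content and length it rose, at 0.76 (edgeR adjusted p = 0.00670), and over all 15 alternatives its adjusted p ran from 0.000266 to 0.795. ATP6V0C shares 72.1% of its exonic bases with other annotated genes on the same strand, so its counts are uncertain. ATP6V0B, which encodes a further ring subunit, was at 305 and 410 in the knockouts and 294 and 303 in the controls (0.26 ± 0.18, edgeR adjusted p = 0.308), with only knockout replicate 3 well above the controls. Without knockout replicate 1, ATP6V0B was at 0.47 (edgeR adjusted p = 3.18e-05), and without knockout replicate 3 at 0.10 (edgeR adjusted p = 0.432). ATP6V0A2, a Golgi and endosome form of subunit a, was at 31.6 and 21.2 in the knockouts, on either side of 27.1 and 26.5 in the controls. Without knockout replicate 1 it fell, by 0.32 (edgeR adjusted p = 0.0360), and without knockout replicate 3 it rose, by 0.31 (edgeR adjusted p = 0.0316). ATP6V0D1 and ATP6V0E2 had log2 fold changes of 0.15 and 0.14, ATP6V0A1 of 0.03 and ATP6V0E1 of -0.00. Of the accessory subunits, ATP6AP1 was at 164 and 164 normalized CPM in the knockouts and 125 and 145 in the controls (0.28 ± 0.14, edgeR adjusted p = 0.178), and ATP6AP2, the prorenin receptor, at 81.4 and 91.8 in the knockouts and 91.9 and 84.6 in the controls (-0.03 ± 0.14, adjusted p = 0.905 by edgeR).

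Within a library the V-ATPase genes covered a wide range of levels per length. ATP6V1F had the highest TPM of all subunit genes, with 939 and 1217 in the knockouts and 821 and 953 in the controls. ATP6V0B was second in both knockouts, at 332 and 381, with 231 and 238 in the controls, and ATP6V1G1 was second in both controls, at 255 and 246, with 301 and 332 in the knockouts. Among the main gene of each subunit, ATP6V1B2 had the lowest TPM in both controls, at 12.3 and 13.6, and was at 49.3 and 29.2 in the knockouts, while ATP6V0A1 was at 33.5 and 26.9 in the knockouts and 23.2 and 22.9 in the controls. TPM put the median tested gene 0.33 higher on the log2 scale in the knockouts than in the controls, so it is read here within libraries only and not as a difference between groups.

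Of 5 membrane proteins of the lysosome, 3 rose and 0 fell (also 0 at an unadjusted p under 0.05 and by DESeq2). LAMP2 (chromosome X, 120427827 to 120469365, minus strand), a major glycoprotein of the limiting membrane with a part in autophagy, was at 61.5 and 53.5 normalized CPM in the knockouts and 24.3 and 26.2 in the controls (1.19 ± 0.15, edgeR adjusted p = 0.00375). SCARB2 (chromosome 4, 76158733 to 76234536, minus strand), also called LIMP-2, carries glucocerebrosidase to lysosomes. Its level was 145 and 138 in the knockouts and 76.0 and 81.9 in the controls (0.84 ± 0.13, edgeR adjusted p = 0.00635). LAMP1 (chromosome 13, 113297241 to 113323672, plus strand), the other major membrane glycoprotein, was at 146 and 133 in the knockouts and 95.5 and 100.2 in the controls (0.51 ± 0.13, edgeR adjusted p = 0.0284). For all 3 genes the knockouts lay close to each other, and no exon is shared with another annotated gene. The groups did not overlap, as the test all but requires of called genes with 2 libraries each. Over 15 alternatives the adjusted p ran from 5.26e-31 to 0.0608 for LAMP2, from 2.21e-20 to 0.171 for SCARB2 and from 4.13e-10 to 0.414 for LAMP1, the highest each time without control replicate 1.

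The other 2 membrane proteins did not pass. MCOLN1, the calcium-releasing channel TRPML1, was at 39.9 and 41.0 normalized CPM in the knockouts and 48.7 and 49.0 in the controls (-0.27 ± 0.14, edgeR adjusted p = 0.184). CD63, a tetraspanin of late endosomes and exosomes, was at 485 and 713 in the knockouts, on either side of 587 and 569 in the controls (0.05 ± 0.21, edgeR adjusted p = 0.879). Without knockout replicate 1, CD63 was at 0.32 and passed (edgeR adjusted p = 0.00969), and without knockout replicate 3 it was at -0.18 and did not (edgeR adjusted p = 0.149). The median of the 5 membrane genes was 0.51.

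**Figure D3:**
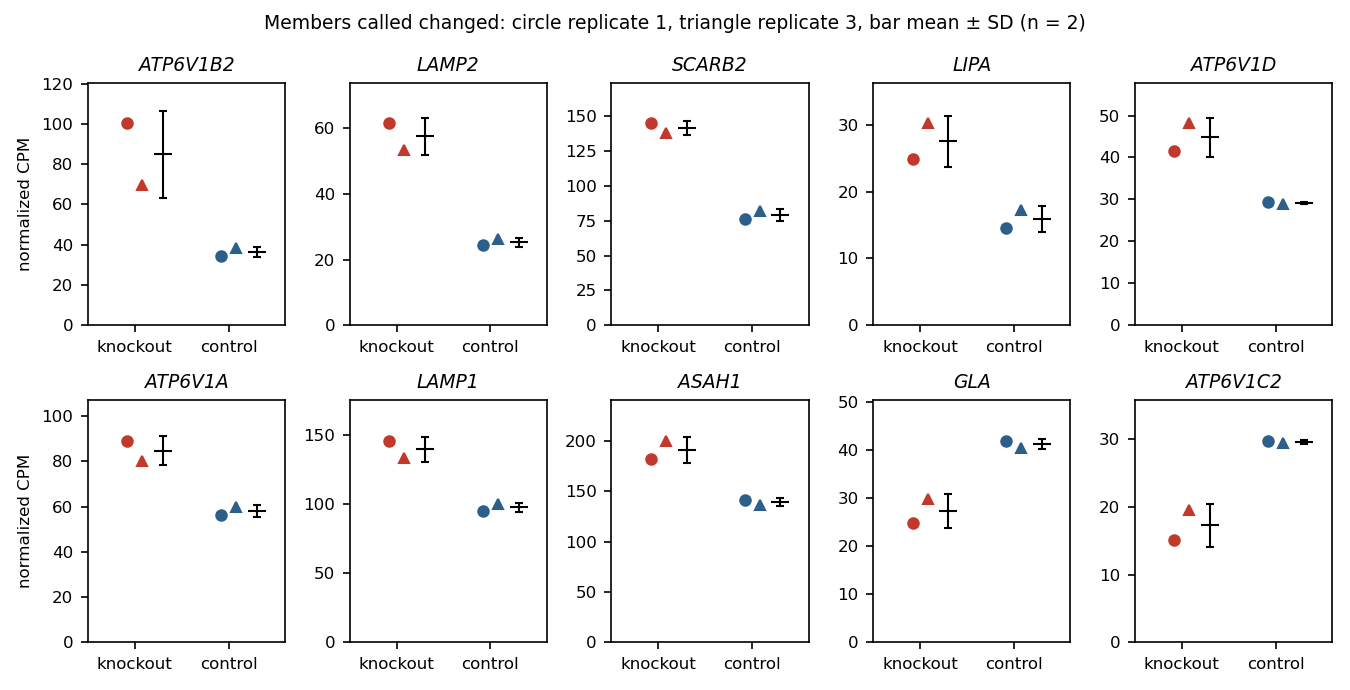
Normalized CPM (y axis) of the 10 called members in each knockout and control library; circles are replicate 1, triangles replicate 3, and bars the mean ± SD (n = 2). LAMP2 lies at 61.5 and 53.5 in the knockouts and 24.3 and 26.2 in the controls, and the groups are separate in every panel, as the test all but requires with 2 libraries each.

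Hydrolases were called in both directions. Among the 13, calls were 2 higher and 1 lower, and 10 did not pass; their median log2 fold change was -0.10, which was 0.00 with library totals alone and 0.07 without knockout replicate 1. The 2 that rose act on lipids. LIPA (chromosome 10, 89213569 to 89414557, minus strand), the acid lipase that cleaves cholesteryl esters and triglycerides, was at 24.9 and 30.3 normalized CPM in the knockouts and 14.5 and 17.3 in the controls (0.79 ± 0.18, edgeR adjusted p = 0.0187). ASAH1 (chromosome 8, 18055992 to 18084998, minus strand), the acid ceramidase, was at 181 and 200.05 in the knockouts and 142 and 136 in the controls (0.46 ± 0.14, edgeR adjusted p = 0.0441), and passed in only 9 of its 15 alternatives. GLA (chromosome X, 101397803 to 101408012, minus strand), the galactosidase that removes terminal alpha-galactose from glycolipids, fell, at 24.8 and 29.9 in the knockouts against 42.0 and 40.5 in the controls (-0.59 ± 0.16, edgeR adjusted p = 0.0310). The adjusted p over 15 alternatives ran from 1.02e-10 to 0.303 for LIPA, from 5.38e-07 to 0.426 for ASAH1 and from 3.63e-07 to 0.348 for GLA, all with their highest value without a control library; with library totals alone GLA was at 0.0611.

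Cathepsins, the lysosomal proteases, were not called. CTSB, a cysteine protease, came closest, at 87.5 and 110.4 normalized CPM in the knockouts and 71.3 and 70.0 in the controls (0.49 ± 0.15, edgeR adjusted p = 0.0511), and passed in 7 of 15 alternatives. CTSD, the aspartic protease, was at 57.3 and 85.04 in the knockouts, on either side of 68.5 and 72.3 in the controls (0.02 ± 0.19, edgeR adjusted p = 0.960). Without knockout replicate 1, CTSD was at 0.29 and passed (edgeR adjusted p = 0.0138), and without knockout replicate 3 it was at -0.23 and did not (edgeR adjusted p = 0.0587). Another gene on its strand shares 41.7% of CTSD's exonic bases, and one on the other strand 15.8%. CTSL, CTSZ and CTSA, a carboxypeptidase that also protects other hydrolases, had log2 fold changes of -0.15, -0.13 and -0.21. PSAP, the precursor of the saposins that present sphingolipids to hydrolases and the highest of the 13 in TPM in every library, was at 451 and 542 in the knockouts and 378 and 377 in the controls (0.40 ± 0.16, edgeR adjusted p = 0.110). The remaining 4, GUSB (glucuronidase), GAA (glycogen), HEXA (gangliosides) and TPP1 (tripeptidyl peptidase), lay between -0.25 and -0.01, with the smallest adjusted p of 0.192 for GUSB. GAA was at -0.24 and passed without knockout replicate 3 (edgeR adjusted p = 0.0390), and was at 0.07 without knockout replicate 1 (edgeR adjusted p = 0.615).

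TFEB and TFE3 themselves showed no called difference in transcript level. TFEB was at 16.6 and 21.1 normalized CPM in the knockouts and 18.0 and 20.2 in the controls (-0.02 ± 0.19, edgeR adjusted p = 0.950), and TFE3 at 37.5 and 40.9 in the knockouts and 34.3 and 36.4 in the controls (0.15 ± 0.15, edgeR adjusted p = 0.498). Neither passed at an unadjusted p under 0.05 or by DESeq2. Their activity is set largely by phosphorylation and location, which counts do not show. Of their relatives, MITF was at 9.37 and 7.73 in the knockouts and 5.42 and 8.26 in the controls and was not called (edgeR adjusted p = 0.392), and TFEC had 0 to 1 counts per library.

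The 2 knockout libraries did not share one pattern across the members. Relative to the mean of the controls, 15 of the 41 tested members that encode proteins of the pathway lay on opposite sides in knockout replicates 1 and 3, and 30 of 41 lay higher in replicate 3 than in replicate 1. These counts, and those by role below, were not taken over all genes tested. Nothing particular to the members is read from them. The median of the 41 was -0.03 in replicate 1 and 0.27 in replicate 3, against -0.05 and 0.01 over all genes tested. In the hydrolases 11 of 13 were higher in replicate 3, with medians of -0.20 in replicate 1 and 0.06 in replicate 3, while in the membrane proteins the figure was 2 of 5. Summed over the 24 V-ATPase genes, the level was 1847 and 2189 normalized CPM in knockout replicates 1 and 3, against 1746 and 1819 in control replicates 1 and 3. Across the 41 genes the log2 fold change had a Spearman correlation of -0.45 with GC content (37.3% to 64.1%) and 0.29 with merged exon length, against -0.23 and 0.10 across 13757 nuclear protein-coding genes, which share the same libraries; the part of either in the differences was not tested beyond the fit with offsets, in which all 10 calls remained. In that fit the median of the 41 was 0.22, against 0.05 without offsets, and the median of all genes with a length was 0.07, against -0.00.

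**Figure D4:**
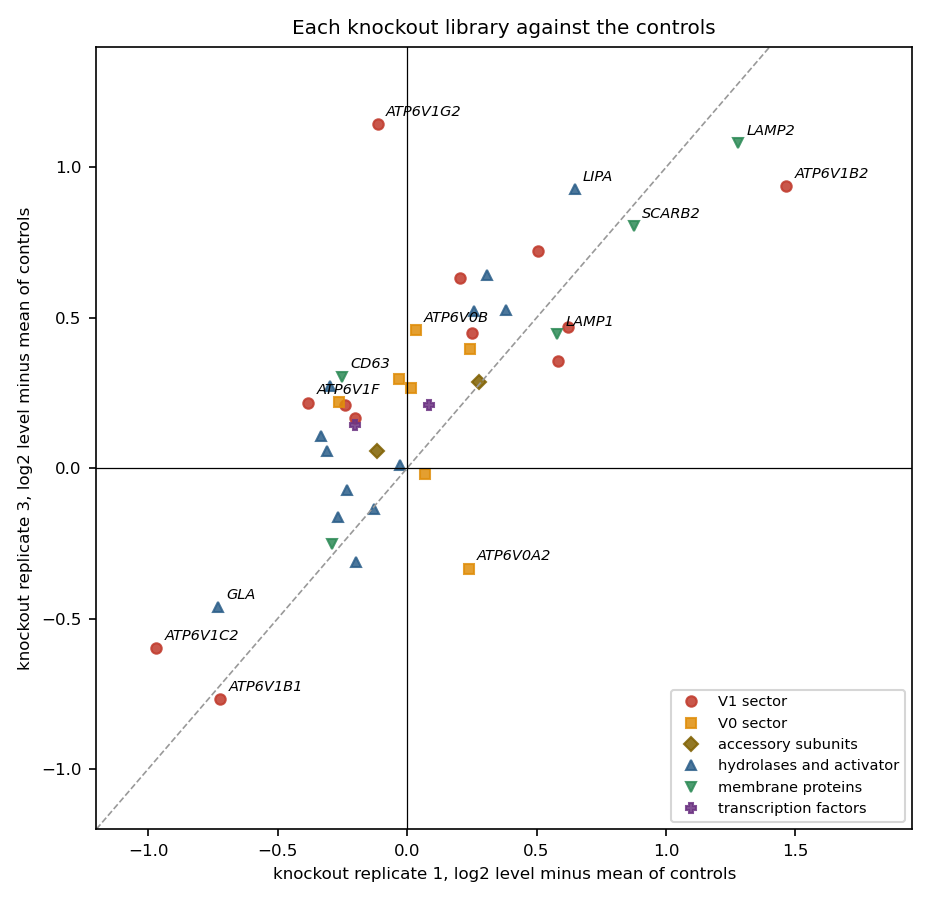
Log2 level of each of the 41 tested members minus the mean of the controls, in knockout replicate 1 (x axis) and knockout replicate 3 (y axis); shapes and colours give the role, and the dashed line marks equal values. Most points lie above the line, 15 lie in the quadrants of opposite sign, and ATP6V1B2, LAMP2 and SCARB2 lie high in both libraries.

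Other genes of the pathway were likewise called in both directions. Of 193 further genes in 7 lists, 189 were tested, of which 28 rose and 12 fell, and 149 did not pass; the median was 0.15. All these counts stand against 9.87% higher and 12.9% lower over all genes tested, and 15% and 13.5% at a mean of 20 CPM or more. The 28 of 189 that rose are close to the share among the more highly expressed genes. The 12 of 189 that fell are below both shares. No list was tested against these shares, and nothing particular to a list is read from its count. In autophagy, fusion and positioning 9 of 37 rose and 1 fell (median 0.20). SQSTM1, the autophagy receptor p62, was at 114 and 103 normalized CPM in the knockouts and 51.2 and 57.9 in the controls (1.00 ± 0.14, edgeR adjusted p = 0.00472). GABARAPL2, an autophagosome protein, was at 72.5 and 74.95 in the knockouts and 38.0 and 38.7 in the controls (0.94 ± 0.13), and RAB7A, the GTPase of late endosomes, at 333 and 329 in the knockouts and 171 and 190 in the controls (0.87 ± 0.14). In sorting to lysosomes 5 of 27 rose and 3 fell (median 0.18). M6PR, a mannose 6-phosphate receptor that delivers hydrolases, was at 89.8 and 68.7 in the knockouts and 31.7 and 38.4 in the controls (1.18 ± 0.18), and the adaptor subunits AP3M1 (1.06 ± 0.17) and AP1S1 (0.74 ± 0.15) also rose. Among GABARAPL2, RAB7A, M6PR, AP3M1 and AP1S1 the highest edgeR adjusted p was 0.0118, for AP1S1. SQSTM1, M6PR and AP3M1 share 22%, 29.3% and 18.8% of their exonic bases with opposite-strand genes.

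Of 38 other membrane proteins 5 rose and 5 fell, with a median of -0.03 and log2 fold changes from -1.67 to 1.02. The 3 with the smallest p, picked by p in these same libraries, all fell and were ion channels or exchangers. The other channels and exchangers of the list are not described here, so no pattern for channels is read from these 3. TMEM175, a potassium and proton channel, was at 25.6 and 24.1 normalized CPM in the knockouts and 52.4 and 46.2 in the controls (-0.99 ± 0.15, edgeR adjusted p = 0.00588). TPCN1, a cation channel of endosomes and lysosomes, was at 87.2 and 83.0 in the knockouts and 169 and 146 in the controls (-0.88 ± 0.14, edgeR adjusted p = 0.00642), and CLCN7, the chloride and proton exchanger, at 66.8 and 66.4 in the knockouts and 121 and 113 in the controls (-0.81 ± 0.13, edgeR adjusted p = 0.00658). These 3 genes fell in both knockout libraries by similar amounts. Of 45 other hydrolases and cofactors 6 rose and 2 fell (median 0.16), and those that rose include the sialate esterase SIAE (1.13 ± 0.18) and the palmitoyl thioesterase PPT1 (0.80 ± 0.13). SIAE and PPT1 share 36.6% and 23.4% of their exonic bases with opposite-strand genes, and CLCN7 shares 16.1%.

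Among 27 genes of mTORC1 and TFEB regulation at the lysosome 2 rose and 1 fell, with a median of 0.06. RRAGD (0.92 ± 0.18) and RRAGC (0.69 ± 0.21), GTPases that recruit mTORC1 and TFEB to the lysosome, rose. NPRL2, part of a complex that restrains mTORC1, fell (-0.49 ± 0.14, edgeR adjusted p = 0.0345). NPRL2 missed the threshold with library totals alone (edgeR adjusted p = 0.0837) and by DESeq2. Over the fits with all 4 libraries, the list's lower count ran from 0, with library totals or DESeq2, to 6, with the replicate block. A gene on its own strand shares 22.9% of RRAGC's exonic bases. RRAGD was at 42.3 and 54.5 normalized CPM in the knockouts and 23.1 and 28.2 in the controls (edgeR adjusted p = 0.0118). Of 14 genes of V-ATPase assembly and regulation, TMEM9B rose (1.01 ± 0.16) and 0 fell, also 0 at an unadjusted p under 0.05 and by DESeq2. Of the 16 genes that make up the called genes with the smallest p of these lists, up to 3 from each, 0 passed without control replicate 1 (edgeR adjusted p of 0.0737 to 0.440), and 5 without control replicate 3. All 16 kept their direction when either one of the knockout libraries was left out. They were chosen by p in these same libraries, so this is no support of its own.

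**Figure D5:**
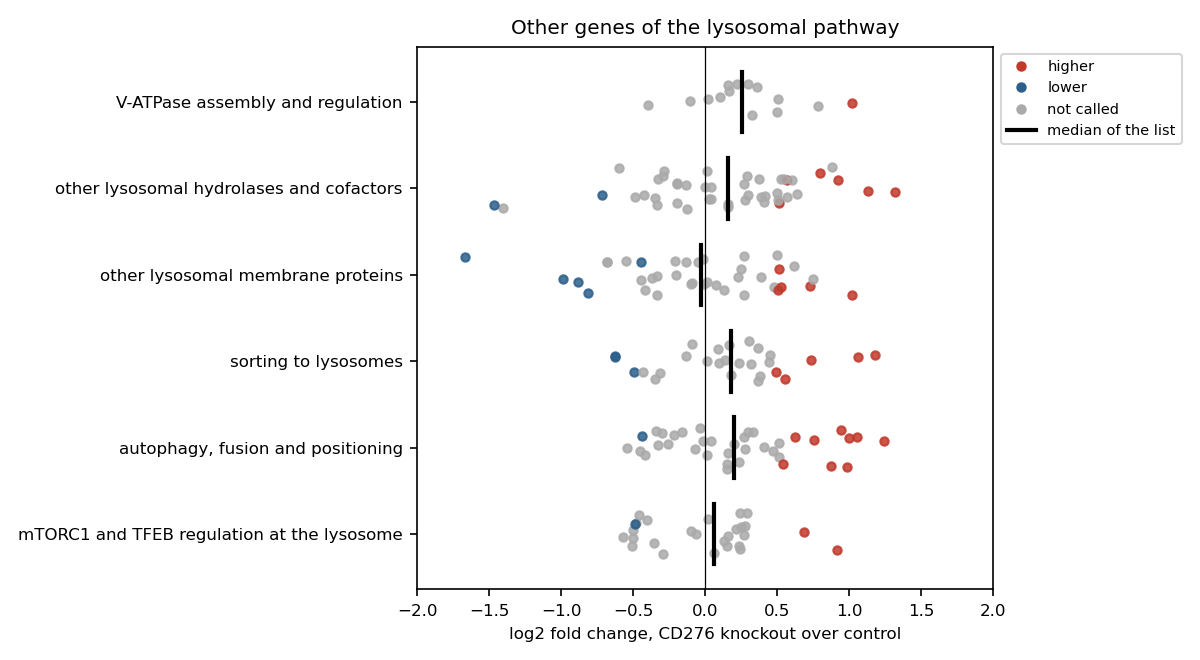
Log2 fold change of knockout over control (x axis) for the tested genes of 6 further lists of the lysosomal pathway (y axis); red points rose, blue points fell, grey points were not called and black bars mark each list's median. The medians run from -0.03 for other membrane proteins to 0.26 for V-ATPase assembly and regulation.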

How the data were processed

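Raw gene counts of the 4 libraries were deposited by the authors as 1 table (22Rv1, poly(A)-selected TruSeq RNA, paired-end, per the labels' protocols). Tools named in the submitters' processing notes are featureCounts (Subread 1.5.2), STAR 2.5.2b and Trimmomatic 0.36, with the build GRCh38. The sources used here give neither the strand setting, nor the treatment of multi-mapping reads, nor the annotation release. The 486 of 57500 rows without a gene name (0.0191% to 0.0290% of a library's counts) were left out. In edgeR 4.0.16 (R 4.3.3), filterByExpr removed low genes, TMM factors scaled the libraries, and glmQLFTest compared the groups after a robust glmQLFit with no covariate, leaving 2 residual degrees of freedom. The SE is the log2 fold change divided by the square root of F. Type, position, exon length and exonic overlap came from GENCODE on GRCh38. Log2 levels per library used an offset of 0.1 CPM.

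The members and lists were chosen with earlier results of these data known. The text gives CD276, every called member, TFEB, TFE3, LAMP1, LAMP2, CTSD, CTSB, the 2 members of each role with the smallest p, paralogs, and up to 3 called genes of each other list with the smallest p; further members are named by value only, and 1 gene of the other lists that the rule picks is not reported here. MITF and TFEC were named because their list has no called gene. The 3 marker lists of fibroblasts, melanocytes and leukocytes had 5, 3 and 1 tested genes, with 1 higher and 1 lower, 0 and 0, and 0 and 0 called; MLANA and CD14 were lower at unadjusted p of 0.0177 and 0.0189 (edgeR). Alternatives were RLE and upper quartile scaling, library totals, no filter, limma voom 3.58.1, DESeq2 1.42.0, a minimum of 50 counts in both libraries of a group, blocking on the replicate number, robust=FALSE, each library left out, GC content and length offsets (splines with 5 degrees of freedom), nuclear protein-coding genes alone, and an adjusted p under 0.01. Where 1 library was left in a group, its spread was taken from the other group.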

Additional observations from a re-analysis of the deposited data

How the results depend on the processing

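The 10 called members kept their direction in all 15 fits, and 9 or 10 kept their call in each fit that used all 4 libraries; ASAH1 was lost with upper quartile scaling, the stricter count filter, the replicate block and protein-coding genes alone, and GLA with library totals. Leaving out 1 library moved the members called from 0 to 21 higher and from 0 to 5 lower, the other pathway genes from 0 to 73 higher and from 0 to 38 lower, and all genes from 45 to 4795 higher and from 267 to 4471 lower. At an adjusted p under 0.01 the counts were 3 higher and 0 lower for members, 12 and 4 for other pathway genes, and 361 and 675 for all genes. Library totals alone gave 1 member lower and 6 other pathway genes lower. Leaving out 1 library moved ATP6V0A2 from -0.32 to 0.31 (called lower without knockout replicate 1 and higher without knockout replicate 3) and ATP6V0E1 from -0.20 to 0.23 (called higher without knockout replicate 1), CTSD from -0.23 to 0.29, CD63 from -0.18 to 0.32 and ATP6V1G2 from -0.13 to 1.11 (each called higher without knockout replicate 1), and GAA from -0.24 to 0.07 (called lower without knockout replicate 3); the cause was not tested. CD276 lay between -1.13 and -0.92 with 1 library left out, the second without control replicate 3 (edgeR adjusted p = 0.0812, range over alternatives 2.28e-16 to 0.0812).

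Replicate numbers 1 and 3 occur in both groups. The deviations of same-numbered libraries correlated at -0.02 over the genes tested. This shows little common shift, and cannot tell whether same-numbered libraries shared a culture or a batch. With the replicate block 8 members rose and 2 fell, 34 other pathway genes rose and 19 fell, and 2062 genes rose and 2781 fell in all. Counts were low for ATP6V1B1, at 19 to 29 per library, and the 5 members that were not tested had 0 to 4.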

Other observations

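The 13 pseudogene rows that match the V-ATPase name pattern, copies of ATP6V0C, ATP6V0E1, ATP6V1E1 and ATP6V1G1, were left out of the members. Of these, 6 had no count in any library, and no row had more than 12 counts in a library. The antisense row ATP6V0E2-AS1 was at 7.20 and 5.798 normalized CPM in the knockouts and 8.73 and 9.86 in the controls (-0.52 ± 0.22, edgeR adjusted p = 0.124) and shares 26.3% of its exonic bases with ATP6V0E2 on the opposite strand. ATP6V1B1-AS1 had 3 and 4 counts in the knockouts and 0 and 1 in the controls, and the readthrough row ATP6V1G2-DDX39B had 0 counts in every library, the whole of its exons being shared with other genes.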
